A study of Arabidopsis thaliana with 18 samples.

Results

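Chalcone isomerase is encoded in Arabidopsis thaliana by TT5 (AT3G55120), and 2 insertion lines of that gene, tt5-3 (SAIL_641_E10) and tt5-4 (SALK_023403), were set against 12 lines mutated at other flavonoid loci. The 2 tt5 libraries were chosen by their titles from 18 libraries in all. The 12 comparison libraries were ban-6 and ban-7, tt1-4 and tt1-5, tt3-3 and tt3-4, and tt8-7 to tt8-12. Of these lines, tt8-7 is from the GK collection, ban-7, tt3-3, tt3-4 and tt8-12 are from SAIL, and the others are from SALK. The 2 ttg1 libraries and the 2 Col-0 files were not used. All 14 libraries came from seedlings shaken for 4 days in medium with 3% sucrose under 24 h of light, a treatment that the labels name AIC and do not expand. The mutants shared this treatment, so no contrast here describes the response to sucrose or light, and no wild type stands in the comparison. Each allele is a single insertion line with 1 library, and the 2 tt5 alleles serve as the samples of their locus. The labels do not state whether the seedlings of different libraries were grown apart, so the p-values measure the spread between these libraries, which includes differences between insertion lines.

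Flavonoids are built from coumaroyl-CoA and malonyl-CoA. Chalcone synthase (CHS) joins them to naringenin chalcone, chalcone isomerase closes the ring of that product to give naringenin, and flavanone 3-hydroxylase (F3H) and flavonoid 3'-hydroxylase (TT7) carry it on. The pathway then divides into flavonols, anthocyanins and, in the seed coat, proanthocyanidins, whose loss gives the pale seeds for which the transparent testa (tt) loci are named. The late steps are switched on by complexes of MYB proteins, bHLH proteins such as TT8, and TTG1.

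The TT5 gene lies on the minus strand of chromosome 3 at positions 20430059 to 20431597 of TAIR10.1 and has 4 exons in the RefSeq annotation. No other annotated gene overlaps it. The 250 bases before its annotated start, and before that of CHS, the preceding enzyme, are shown as a description of these genes. Any part of these letters in the levels given below was not tested. The sequences are from the RefSeq assembly TAIR10.1, 5′ to 3′ on the strand of the gene, with capitals marking CACGTG or ACGT.
TT5, chr3:20431598-20431847, minus strand: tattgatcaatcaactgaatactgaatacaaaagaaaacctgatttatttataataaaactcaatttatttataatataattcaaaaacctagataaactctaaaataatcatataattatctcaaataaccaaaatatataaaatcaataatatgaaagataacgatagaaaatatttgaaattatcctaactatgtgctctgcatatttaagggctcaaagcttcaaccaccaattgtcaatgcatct
CHS, chr5:4488226-4488475, plus strand: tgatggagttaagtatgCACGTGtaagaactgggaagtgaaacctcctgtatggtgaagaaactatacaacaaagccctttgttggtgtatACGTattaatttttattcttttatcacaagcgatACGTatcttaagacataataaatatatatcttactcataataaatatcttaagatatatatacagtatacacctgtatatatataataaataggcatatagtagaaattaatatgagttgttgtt
The G-box CACGTG, a site of the kind bound by light-signalling bZIP factors such as HY5, occurred 1 time in the CHS window, and its ACGT core occurred 3 times there, 1 of them inside the G-box. The F3H window held 1 G-box and 5 ACGT cores by the same count, and the TT5 window held neither. Searched on both strands, the G-box was in 6.5% and ACGT in 44.1% of 27443 windows of the same length before protein-coding genes. Of the letters of elements bound by MYB factors, ACCTACC was in 1.2% of all windows. The form ACCAACC was in 2.7% of them. The form ACCTAAC was in 2.5%. None of these forms was in the TT5, CHS or F3H window. A match describes the letters of a window only.

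TT5 itself was low in both of its mutants. Its level was 4.23 CPM (counts per 1000000 counts of the library's nuclear loci) in tt5-3, from 96 counts, and 4.50 CPM in tt5-4, from 93 counts. Exact 95% Poisson intervals, which cover counting error only, ran from 3.43 to 5.17 CPM and from 3.63 to 5.52 CPM. Among the 12 other libraries the lowest value was 31.1 CPM in tt8-7, the median 65.0 CPM and the highest 89.2 CPM in tt8-10. The 2 tt5 libraries did not differ beyond counting error, and both lay under all 12. The mean was 4.37 CPM ± 0.189 (SD, n = 2) against 61.4 CPM ± 22.8 (SD, n = 12). The lowest of the 12 was 6.91-fold above the higher tt5 library, and the median of the 12 was 15.3-fold above tt5-3 and 14.4-fold above tt5-4. This low level is part of how the lines were described when they were chosen, so it serves as a check of the labels and not as a finding. Transcript of TT5 was still counted in both lines, and where the reads fell within the gene cannot be read from counts per gene.

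**Figure D1:**
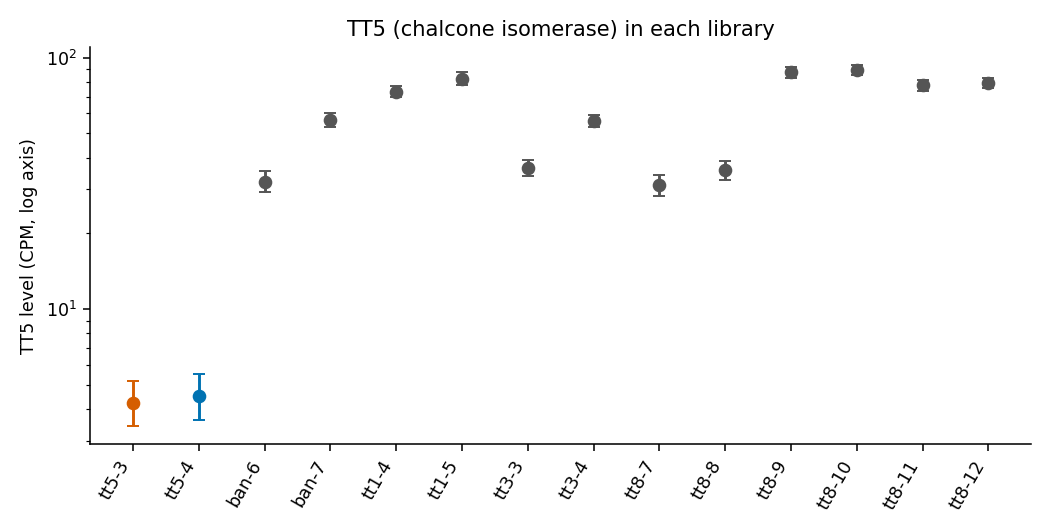
TT5 level in each library in CPM on a log axis, with exact 95% Poisson intervals for counting error. The tt5-3 and tt5-4 points lie at 4.23 and 4.50 CPM, under all 12 others, which run from 31.1 to 89.2 CPM.

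The comparison lines gave fewer checks of this kind. DFR, the gene named in the tt3 lines, stood at 211 CPM and 274 CPM there and at 32.2 to 264 CPM in the other 12 libraries. TT8 stood at 6.97 to 102 CPM in the 6 tt8 libraries and at 10.2 to 36.9 CPM in the other 8. BAN had at most 2 counts and TT1 had 0 counts in every one of the 14 libraries. Total counts per library ran from 13076113 to 27145377, with 22669572 in tt5-3 and 20656936 in tt5-4. A value of 3 counts therefore corresponds to 0.132 CPM in tt5-3 and 0.145 CPM in tt5-4. As a check of the label of seedlings, 10 markers of green tissue were summed, which gave 167 CPM in tt5-3 and 334 CPM in tt5-4, between 113 and 408 CPM in the 12.

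The fit over all genes asked which of them separated the tt5 lines from the other 12. edgeR's quasi-likelihood test compared the 2 libraries with the 12 over 20607 genes that passed its filter on low counts, with Benjamini-Hochberg adjustment, and called 0 genes (0%) at an adjusted p of 0.05. An unadjusted p under 0.05 was reached by 584 genes (2.83%), 403 of them higher and 181 lower in tt5. The smallest adjusted p was that of TT5 (edgeR, log2 fold change -3.81, SE 0.51, adjusted p 0.0535), and it lay lower in 2 of 2 tt5 libraries. Over 22 other settings of the fit its log2 fold change stayed between -3.88 and -3.65, while its adjusted p ran from 4.26e-17 (DESeq2) to 0.707 (edgeR without tt5-3). In 4 of the edgeR fits that left out 1 library it passed, namely without ban-6 (adjusted p 0.00975), without tt3-3 (0.0391), without tt8-7 (0.0335) and without tt8-8 (0.0458). Next in order came AT1G64795 and AT1G66440, each with an edgeR adjusted p of 0.122, and from the fourth gene on the value was 0.999.

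**Figure D2:**
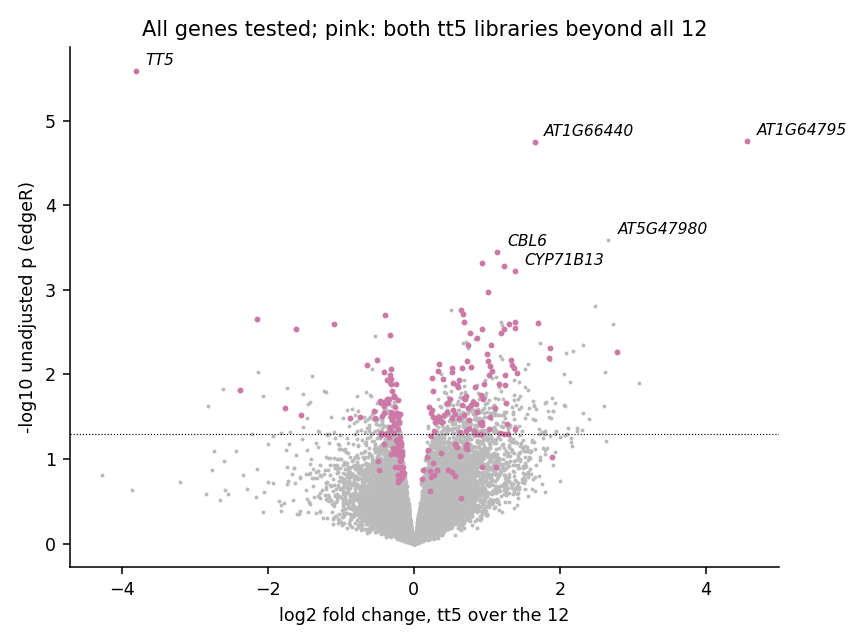
Each point is 1 of 20607 genes, with the edgeR log2 fold change of tt5 over the 12 others on the x axis and -log10 of the unadjusted p on the y axis, where the dotted line marks 0.05. Pink points are the 228 genes for which both tt5 libraries lay beyond all 12; TT5 stands alone at the upper left, at a log2 fold change of -3.81.

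Counting ranks in place of a test, both tt5 libraries lay above all 12 for 128 genes (0.621%) and below all 12 for 100 genes (0.485%). These shares describe the ranks and carry no test. The distance between the nearest tt5 library and the nearest of the 12, taken as a log2 ratio of CPM + 0.5, was -2.66 for TT5, from -0.26 upward for the other 99 genes below and at most 0.69 for the genes above. TT5 was the only one of the 228 with a gap of at least 2-fold (0.00485% of the genes tested).

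The widest gap above belonged to AT1G66440, annotated as a C1 domain protein rich in cysteine and histidine. It stood at 3.13 CPM in tt5-3 and 2.03 CPM in tt5-4, against 0.405 to 1.07 CPM with a median of 0.835 CPM in the 12. It did not pass in edgeR (adjusted p 0.122) and was called by DESeq2 (adjusted p 2.16e-04) and by edgeR without ban-6 (adjusted p 0.0283). CYP71B13, a cytochrome P450, stood at 9.62 CPM and 8.57 CPM, against 1.94 to 5.45 CPM with a median of 3.58 CPM. Both tt5 libraries were near each other in these genes and the 12 were all lower. CKX5, a cytokinin oxidase that degrades cytokinins, stood at 9.97 CPM and 8.57 CPM, against 2.44 to 6.42 CPM with a median of 3.75 CPM. CBL6, a calcium sensor of the calcineurin B-like family, stood at 3.31 CPM and 2.57 CPM, against 0.841 to 1.83 CPM. Neither passed the edgeR test (adjusted p 0.999 for both), and DESeq2 called both (adjusted p 0.0445 for CKX5 and 0.0084 for CBL6). The other 8 genes with the widest gaps above were AT3G61198, HB52 (a homeodomain factor), AT4G27810, AT4G36120, AT3G50190, LARP6c (an RNA-binding protein), AT2G47370 and AT2G01900, with gaps of 0.28 to 0.38. All 8 were low, at no more than 4.79 CPM in a tt5 library.

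Below the 12 the gaps were narrower. After TT5 the widest were those of AT5G15360, at 0.0882 CPM and 0.0968 CPM (2 counts in each tt5 library) against 0.212 to 0.726 CPM, and of AT4G09750, a Rossmann-fold protein, at 23.4 CPM and 24.3 CPM against 28.9 to 55.4 CPM. PNC1, which carries adenine nucleotides into peroxisomes, stood at 58.5 CPM and 57.2 CPM, against 64.1 to 80.5 CPM with a median of 72.2 CPM. TSD2, a methyltransferase-like protein of pectin synthesis, stood at 110 CPM and 108 CPM, against 124 to 176 CPM. PNC1 did not pass in edgeR (log2 fold change -0.33, SE 0.09, adjusted p 0.999) and passed in DESeq2 (adjusted p 0.0445). The others among the 12 widest gaps below were AT2G40710, AT2G34185, AT3G18870, AT3G57880, AT3G07565, AT5G08500 and the cation channel gene CNGC1, with gaps of -0.21 to -0.13. None of the 228 genes other than TT5 belongs to the 6 lists of flavonoid enzymes, regulators and chalcone isomerase relatives.

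Beyond TT5 no enzyme or regulator of the pathway was called. The 6 lists held 68 genes, of which 57 passed the filter, and of the 56 without TT5 the edgeR test called 0 and DESeq2 called 0. An unadjusted edgeR p under 0.05 was reached by 1 of the 56, the WRKY factor gene TTG2, which acts downstream of TTG1 in trichomes and seed coat. The 11 genes that did not pass the filter, among them BAN, TT12, TT2, TT1 and TT16 of the seed coat pathway, had at most 3 counts in any library.

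The enzymes next to TT5 in the pathway were higher in tt5-3 than in tt5-4. CHS stood at 1608 CPM in tt5-3 and 377 CPM in tt5-4, with 306 to 1745 CPM and a median of 1086 CPM in the 12. F3H stood at 287 CPM in tt5-3 and 86.0 CPM in tt5-4, with 57.1 to 328 CPM and a median of 186 CPM. TT7 stood at 107 CPM in tt5-3 and 36.5 CPM in tt5-4, with 24.5 to 253 CPM and a median of 104 CPM. In tt5-3 the levels of CHS and F3H were near the top, with 10 of the 12 libraries under each, while in tt5-4 only tt8-8 lay lower for CHS and only ban-6 for TT7. The difference between the alleles was 4.26-fold for CHS, 3.34-fold for F3H and 2.94-fold for TT7. CHIL, which has the isomerase fold without the activity and raises the output of chalcone synthase, stood at 17.5 CPM and 12.6 CPM, within 7.10 to 39.7 CPM. The fitted log2 fold changes were -0.08 for CHS (SE 0.57), -0.02 for F3H (SE 0.59), -0.85 for TT7 (SE 0.82) and -0.04 for CHIL (SE 0.49), each with an edgeR adjusted p of 0.999. With SEs of this size, a reduction of 2-fold was not excluded for any of the 4 genes.

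Set against CHS in the same library, TT5 was low in both lines, and the ratio differed between them with the level of CHS. TT5 itself stood at 4.23 CPM in tt5-3 and 4.50 CPM in tt5-4, and CHS at 1608 CPM and 377 CPM. There were 0.263 TT5 counts for each 100 CHS counts in tt5-3 and 1.19 in tt5-4. In the 12 this figure ran from 3.12 in tt8-7 to 11.7 in tt8-8, with a median of 6.23. Both tt5 libraries were under all 12, which, like the low level of TT5, is a check of the labels and not a finding. These are ratios of counts that are not adjusted for transcript length.

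**Figure D3:**
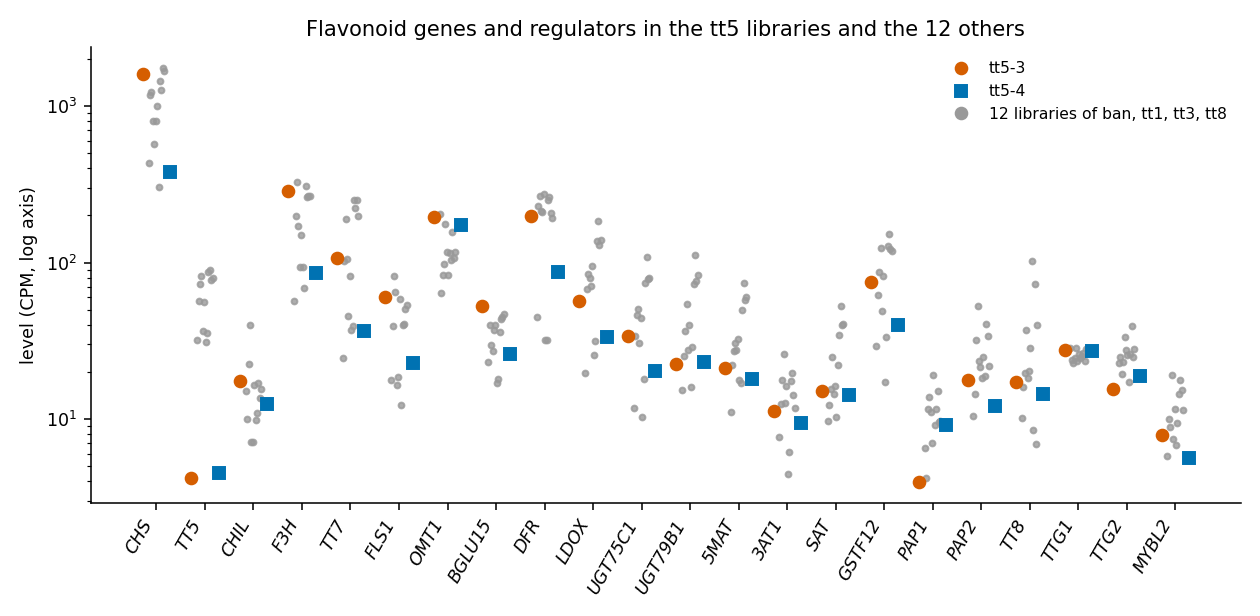
Levels in CPM on a log axis for flavonoid enzymes and regulators, with 12 grey points for the ban, tt1, tt3 and tt8 libraries, an orange point for tt5-3 and a blue square for tt5-4. TT5 is the gene with both tt5 points clear of the grey ones; CHS and F3H lie high among the grey points in tt5-3, TT7 lies near their middle, and all 3 genes lie low in tt5-4.

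Flavonol genes lay mostly within the range of the 12. FLS1, the main flavonol synthase, stood at 60.7 CPM in tt5-3 and 22.8 CPM in tt5-4, within 12.3 to 82.4 CPM. OMT1, which methylates quercetin and also lignin precursors, stood at 195 CPM and 174 CPM, with a median of 111 CPM and a highest value of 205 CPM in the 12 (log2 fold change 0.63, SE 0.30, unadjusted p 0.0538, edgeR adjusted p 0.999). BGLU15, a glucosidase acting on flavonol glycosides, stood at 53.1 CPM in tt5-3, above the 47.2 CPM that was the highest of the 12, and at 26.1 CPM in tt5-4. The FLS1 relatives FLS2, FLS3 and FLS4 were in the upper part in tt5-4, with 12, 11 and 11 of the 12 libraries under it, and FLS5 stood at 66.6 CPM and 68.8 CPM within 37.9 to 97.8 CPM. The glucosyltransferases UGT78D1 and UGT78D2, the rhamnose synthase RHM1 and the transporter DTX35 were inside the range of the 12 in both lines, as was UGT78D3, which had at most 1.14 CPM. Of the 12 members tested, 9 had a fitted log2 fold change above 0, with a median of 0.16 against -0.02 over all genes, and none was called. FLS6, UGT73C6 and UGT89C1 did not pass the filter.

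The late anthocyanin genes all had a fitted log2 fold change below 0, without a call. Of 11 members, 11 passed the filter and 11 had this sign, which 53.3% of all genes had. Their median was -0.54 and that of all genes was -0.02, and 0 of the 11 had an unadjusted p under 0.05. LDOX, which oxidises leucoanthocyanidin to anthocyanidin, stood at 56.6 CPM in tt5-3 and 33.4 CPM in tt5-4, with 19.7 to 185 CPM and a median of 82.3 CPM in the 12. UGT79B1, which adds xylose to anthocyanins, stood at 22.6 CPM and 23.0 CPM, with 15.4 to 112 CPM and a median of 38.2 CPM. Both genes were under the median in both lines and above the lowest of the 12 libraries. DFR, which reduces dihydroflavonols, stood at 199 CPM and 86.8 CPM, with a median of 213 CPM. The glucosyltransferase UGT75C1 stood at 33.9 CPM and 20.2 CPM, with a median of 45.2 CPM, and GSTF12, needed to bring anthocyanins into the vacuole, at 74.7 CPM and 39.7 CPM, with a median of 84.4 CPM. The acyltransferases 5MAT, 3AT1 and SAT were under the median of the 12 in both lines, and 3AT2 in tt5-4. UGT84A2, which makes sinapoyl glucose, stood at 195 CPM and 210 CPM against a median of 222 CPM. By level, 2 members lay above the median of the 12 in 1 line, 3AT2 in tt5-3 and BGLU10 in tt5-4. BGLU10 stood at 33.5 CPM in tt5-3, just under the 33.7 CPM that was the lowest of the 12, and at 50.2 CPM in tt5-4. The largest fitted changes were -1.10 for UGT79B1 (SE 0.66) and -0.98 for LDOX (SE 0.68), with an edgeR adjusted p of 0.999 for both. The medians of the 12 include the 6 tt8 lines. LDOX stood at 129 to 185 CPM in tt8-9 to tt8-12 and at 19.7 to 94.9 CPM in the ban, tt1 and tt3 libraries. Among the latter, LDOX in tt5-3 was above ban-6 alone. GSTF12 and SAT in tt5-3 were above ban-6, ban-7 and tt3-3 and under tt1-4, tt1-5 and tt3-4.

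For 7 of the 11 late genes the libraries under tt5-4 were the same 3, namely ban-6, tt8-7 and tt8-8. On the first principal component of log2 levels, which held 52.1% of the variance, tt5-4 scored 63.2 and those 3 scored 74.8, 43.8 and 44.5, the 4 highest of the 14 scores. The score of tt5-3 was -16.2, the seventh from the lowest, where the 14 ran from -58.4 in ban-7 to 74.8 in ban-6. In tt5-4 a high score thus went together with low levels of late genes. The next highest score was 28.3 in tt1-5, where all late genes except LDOX lay above the median of the 12. There UGT79B1 stood at 54.5 CPM against a median of 38.2 CPM, and LDOX at 79.6 CPM against 82.3 CPM. The part of this component in the result was not tested. Over the tested genes the log2 levels of tt5-4 correlated best with those of ban-6 (r = 0.989 across genes) and those of tt5-3 with tt8-12 (r = 0.988), and r between the 2 tt5 libraries was 0.952.

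Among the proanthocyanidin genes, which act in the seed coat, the 4 that passed the filter were not called. TT10, a laccase, stood at 8.20 CPM in tt5-3, under the lowest of the 12 at 8.31 CPM, and at 14.1 CPM in tt5-4. TT9 stood at 30.8 CPM in tt5-3, under the 31.9 CPM that was the lowest of the 12, and at 41.0 CPM in tt5-4. The proton pump gene AHA10 and the glycosyltransferase gene TT15 were within the range in both lines.

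Of the activators of the late genes, PAP1, PAP2 and TT8 were under the median of the 12 in both lines. PAP1, a MYB activator of anthocyanin synthesis, stood at 3.97 CPM in tt5-3, under all 12 (as 4.5% of all genes were in that line), and at 9.25 CPM in tt5-4, with 4.19 to 19.1 CPM and a median of 10.5 CPM in the 12. PAP2, its near relative, stood at 17.7 CPM and 12.1 CPM, with a median of 22.6 CPM and 10.5 to 52.8 CPM. Neither was called (edgeR adjusted p 0.999 for both). MYB113 stood at 4.72 CPM and 2.66 CPM around a median of 3.91 CPM. The bHLH gene TT8 stood at 17.2 CPM and 14.5 CPM, GL3 at 5.91 CPM and 3.92 CPM, and EGL3 at 4.68 CPM and 10.7 CPM, all within the range of the 12. For TT8 the 12 include the 6 tt8 insertion lines, at 6.97 to 102 CPM, so their median is a poor reference for this gene. In the ban, tt1 and tt3 libraries TT8 ran from 10.2 to 36.9 CPM. TTG1, the WD40 subunit of these complexes, stood at 27.5 CPM and 27.2 CPM within 22.7 to 28.6 CPM. TTG2 stood at 15.7 CPM in tt5-3, under all 12, and 18.9 CPM in tt5-4, where only tt8-8 lay lower, with a median of 25.4 CPM (log2 fold change -0.59, SE 0.22, unadjusted p 0.0176, edgeR adjusted p 0.999).

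Of the MYB activators of flavonol synthesis, MYB12 stood at 19.6 CPM in tt5-3 and 8.37 CPM in tt5-4 around a median of 10.6 CPM. MYB11 and MYB111 were low, at 0.0882 CPM and 0.221 CPM in tt5-3 and 0.484 CPM and 1.40 CPM in tt5-4, and MYB11 in tt5-3, with 2 counts, was under all 12. HY5, a bZIP factor of light signalling, stood at 19.5 CPM and 18.9 CPM around a median of 15.7 CPM, and its relative HYH at 39.7 CPM in tt5-3 and 19.4 CPM in tt5-4 around a median of 31.1 CPM. Like CHS and F3H, HYH and MYB12 were higher in tt5-3 than in tt5-4.

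The repressors were not called either. MYBL2, a small MYB that restrains anthocyanin synthesis, stood at 7.90 CPM in tt5-3 and 5.66 CPM in tt5-4, where it was under all 12 (as 5.54% of all genes were in that line), with a median of 10.7 CPM. LBD38, a repressor tied to nitrate, stood at 17.2 CPM and 15.3 CPM, and 11 of the 12 libraries were under each line, the exception being ban-6 at 24.1 CPM (log2 fold change 1.03, SE 0.48, unadjusted p 0.0505, edgeR adjusted p 0.999). LBD37 stood at 6.93 CPM and 12.9 CPM around a median of 4.23 CPM. MYB4, which represses phenylpropanoid genes, stood at 16.9 CPM and 33.2 CPM around a median of 11.3 CPM. MYB7, MYB3, CPC and SPL9 were within the range of the 12 in both lines. KFB-CHS, an F-box protein that marks chalcone synthase for degradation, stood at 30.3 CPM in tt5-3 and 93.5 CPM in tt5-4, within 18.7 to 108 CPM, the reverse of the order of CHS in the 2 alleles. Over the 22 regulators tested, 14 had a fitted log2 fold change above 0 and the median was 0.08, against -0.02 over all genes.

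Other proteins with the chalcone isomerase fold did not share the low level of TT5. FAP1, a plastid protein that binds fatty acids, stood at 32.8 CPM in tt5-3 and 18.1 CPM in tt5-4, within 14.5 to 47.3 CPM. FAP2 stood at 19.1 CPM and 16.2 CPM, within 14.1 to 26.4 CPM. FAP3 stood at 1.01 CPM and 2.61 CPM, the latter above the 2.37 CPM that was the highest of the 12. The isomerase-like gene AT5G66220 had 0 counts in all 14 libraries, which allows up to 0.132 CPM in tt5-3 and 0.145 CPM in tt5-4.

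The supply of precursors was examined through lists of other genes of phenylpropanoid metabolism. Of 13 tested genes of phenylpropanoid entry, 0 were called, 11 had a fitted log2 fold change above 0 and the median was 0.38. Over all genes 53.3% had a log2 fold change below 0, and the median was -0.02. In tt5-3 the phenylalanine lyase gene PAL2 stood at 326 CPM and the hydroxylase gene C4H at 2082 CPM, above the highest of the 12, and in tt5-4 they stood at 138 CPM and 1507 CPM. Of 14 tested genes of lignin and sinapate synthesis, 0 were called and 6 were above all 12 in tt5-3, where 5.33% of all genes were, while in tt5-4 none was. UGT72E2, which glucosylates monolignols, stood at 162 CPM in tt5-3 and 103 CPM in tt5-4, with 27.4 to 114 CPM and a median of 56.2 CPM, and ban-6 gave the 114 CPM (log2 fold change 1.20, SE 0.38, unadjusted p 0.00657, edgeR adjusted p 0.999). Of the 6 genes of malonyl-CoA supply none was called, and the median log2 fold change was 0.16. Of 13 tested genes of auxin transport and response, a process that flavonols are known to restrain, none was called either, and the carrier gene PIN4 stood at 9.84 CPM in tt5-3 and 58.9 CPM in tt5-4, with 7.32 to 59.8 CPM in the 12. These genes were named after their values were seen.

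The loci beside TT5 on chromosome 3 did not share its low level. Of the 10 annotated loci on each side, from position 20388869 to position 20466419, 15 passed the filter and 0 of the 20 lay beyond all 12 in both tt5 libraries, where 1.11% of all genes did. The nearest, ABCG18 and ABCG19, encode transporters and stood at 1.15 CPM and 2.47 CPM in tt5-3 and at 2.32 CPM and 11.0 CPM in tt5-4, within the range of the 12. A single neighbour was outside that range in 1 line, AT3G55020 at 81.9 CPM in tt5-3 against 85.1 to 114 CPM. AT3G08450 had 0 counts in all 14 libraries, AT3G55190 had 0 counts in both tt5 libraries and at most 0.0440 CPM in the 12, and AT3G55180 had 0 counts in tt5-4 and 1 count in tt5-3.

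Genes of root hairs were high in both tt5 lines and in ban-6. These genes came to notice because DESeq2 called 23 genes (0.112%), 21 of them higher in tt5, and because the edgeR test without ban-6 called 24 genes (0.117%), 23 of them higher in tt5. The 2 sets shared 12 genes, 52.2% of the first and 50.0% of the second. LRL3, a bHLH factor of root hair growth, stood at 8.20 CPM in tt5-3, 11.5 CPM in tt5-4 and 14.4 CPM in ban-6, and at no more than 2.26 CPM in the other 11. RSL2, a bHLH factor that acts below RHD6, stood at 2.91 CPM, 5.95 CPM and 12.1 CPM in the same order, and at no more than 0.855 CPM in the other 11. In both genes these 3 libraries did not overlap the other 11, and ban-6 was the highest of all. EXPA7, an expansin of root hairs, stood at 1.06 CPM, 3.39 CPM and 5.89 CPM against at most 0.479 CPM. The peroxidase gene PRX44 stood at 8.73 CPM, 17.7 CPM and 25.6 CPM against at most 4.35 CPM.

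With all 12 libraries the edgeR adjusted p of LRL3, RSL2, EXPA7 and PRX44 was 0.999 for each, and without ban-6 it was 0.000385 for LRL3 and 0.0258 for the other 3. DESeq2, run on all 14 libraries, gave them adjusted p-values of 8.13e-17, 2.16e-04, 8.89e-04 and 2.66e-04. By default it replaces outlying counts in an arm as large as the 12. Its log2 fold changes were 2.61, 3.46, 3.02 and 2.38 in the same order. Those of edgeR were 2.69, 3.51, 3.02 and 2.43 without ban-6, and 1.92, 1.75, 1.66 and 1.60 with it. The DESeq2 calls are therefore no separate check with the ban-6 values kept. Of the 23 genes called as higher without ban-6, 20 had a level in ban-6 above the lower of the 2 tt5 libraries. None of the 23 was called with ban-6 in the fit, so this count follows largely from how the set was made. A list of 20 root hair genes, put together after these values were seen and therefore without a test, held 19 that passed the filter. Both tt5 libraries were above the 11 libraries other than ban-6 for 11 of them, where 2.71% of all genes were, and above all 12 for 0 of them. RHD6, which starts root hair formation, stood at 24.2 CPM and 20.1 CPM, within the range of the 12 in tt5-4 and just above their highest value of 23.4 CPM in tt5-3. The oxidase gene RHD2 and LRX2 lay within the range of the 12 in both lines, and the cellulose synthase-like gene CSLD3 stood at 147 CPM in tt5-3 and, in tt5-4, at 90.2 CPM, under all 12.

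**Figure D4:**
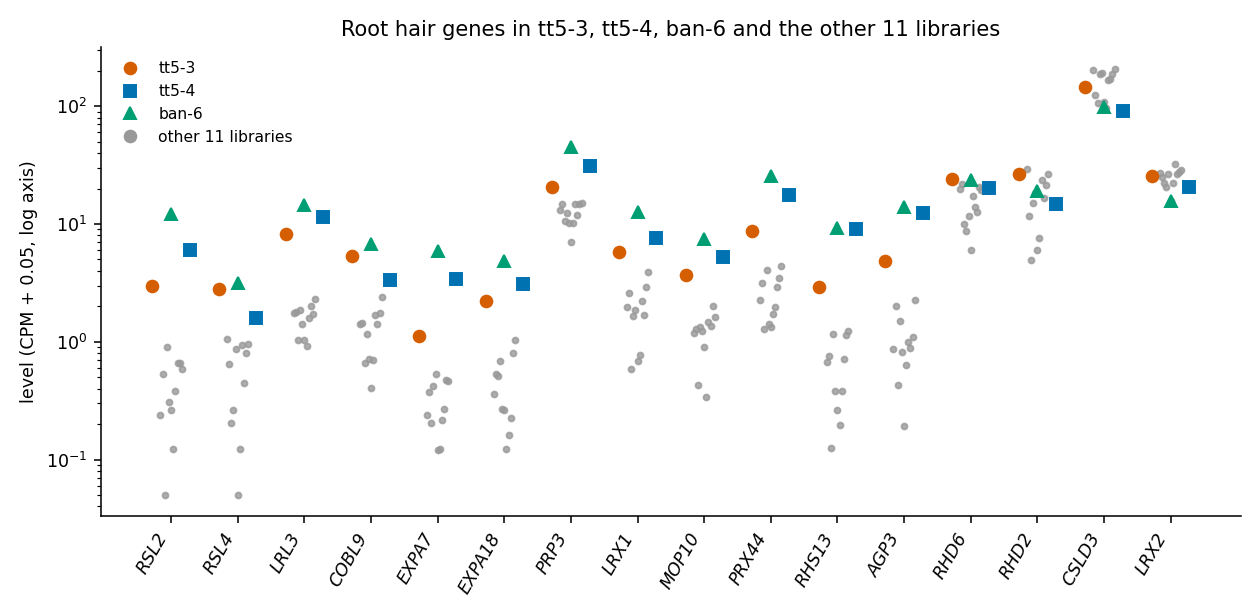
Levels of root hair genes in CPM with 0.05 added, on a log axis, for tt5-3 (orange), tt5-4 (blue), ban-6 (green triangles) and the other 11 libraries (grey). From RSL2 to AGP3 the 3 coloured libraries lie above the grey points, whereas RHD6, RHD2, CSLD3 and LRX2 overlap them.

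The summed level of root tissue markers was above the median of the 12 in both lines, by less in tt5-3 than in tt5-4. The median of their log2 ratios to the median of the 12 was 0.25 in tt5-3 and 1.15 in tt5-4. The summed level of 10 root markers was 1209 CPM in tt5-3 and 1564 CPM in tt5-4, with 336 to 1521 CPM and a median of 724 CPM in the 12, where ban-6 gave the highest value. Of the 10 markers, 10 passed the filter and 0 were called by edgeR. All 10 had a fitted log2 fold change above 0, with a median of 0.73 against -0.02 over all genes. The largest part of the sum was PYK10, a root glucosidase, at 1023 CPM in tt5-3 and 1264 CPM in tt5-4 against 214 to 1174 CPM. The markers EXPA7, COBL9 and PRX44 are in the root hair list too. The markers besides these and PYK10 lay nearer the median of the 12 in tt5-3. There AKT1 stood at 84.9 CPM against a median of 84.5 CPM and SCR at 30.3 against 30.2 CPM. MYB36 stood at 9.70 against 9.05 CPM, CASP1 at 27.0 against 22.7 CPM and PHT1;1 at 11.6 against 9.67 CPM. SHR was lower, at 6.53 against 7.32 CPM. In tt5-4 all of them except PHT1;1 were above the median. The suberin list, genes of the root barrier polymer, had a median log2 fold change of 0.49 over 8 tested members, with 0 called. Markers of the seed coat summed to 98.3 CPM and 78.6 CPM, within 74.3 to 119 CPM. In whole seedlings, more root cells and more RNA per root cell cannot be told apart, and the part of the root markers in the root hair result was not tested.

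The 2 tt5 alleles differed from each other at many genes. At least 2-fold apart, with 0.5 added to CPM, were 2456 genes (11.9%), of which 1236 (6%) were higher in tt5-3 and 1220 (5.92%) were higher in tt5-4. Among 18 pairs of alleles of 1 locus in the ban, tt1, tt3 and tt8 groups this number ran from 91 to 4937, with a median of 1608. Most of these pairs are combinations of the same 6 tt8 libraries and are not independent, so the median mainly describes tt8. The single pairs of ban, tt1 and tt3 gave 4937, 1807 and 1089 genes. Seed storage and maturation genes summed to 6539 CPM in tt5-3 and 2288 CPM in tt5-4, and 13 of the 14 were higher in tt5-3. In the 12 this sum ran from 1487 to 21931 CPM, with a median of 4631 CPM. Heat shock genes summed to 654 CPM in tt5-3 and 1754 CPM in tt5-4, and 12 of the 14 were higher in tt5-4. Their sum in the 12 ran from 349 to 2035 CPM, with a median of 831 CPM. Of the early flavonoid genes other than TT5, 4 of 4 were higher in tt5-3. All 10 green markers were higher in tt5-4. With 1 library for each allele, these differences have no replicate check. Allele, insertion collection (SAIL for tt5-3, SALK for tt5-4), culture and library cannot be told apart.

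Few loci set 1 tt5 library at least 2-fold apart from the other 13. In tt5-3 there were 10 such loci above (0.0307% of 32547) and 0 below, and in tt5-4 there were 11 above (0.0338%) and 1 below (0.00307%). For the 12 other libraries, counted in the same way, the sum of both directions ran from 1 to 159 with a median of 6.5.

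In tt5-3, 2 genes were counted that were at or near 0 elsewhere. MYB119 (AT5G58850), a MYB factor known from the female gametophyte, had 127 counts in tt5-3, or 5.60 CPM with a 95% Poisson interval of 4.67 to 6.67 CPM, and 0 counts in the other 13 libraries. Set against a floor of 3 counts over those 13 libraries together, the 5.60 CPM was 451-fold higher. This figure leaves out the counting error of the 127 counts. Its neighbour on chromosome 5, CYP86A1, stood at 69.4 CPM in tt5-3 and 75.0 CPM in tt5-4, with 36.3 to 73.2 CPM in the 12. The short name of the tt5-3 data file resembles the symbol of this gene; the line was grouped by its label, and its level of TT5 is the one given above. CPK20 (AT2G38910), a calcium-dependent protein kinase gene on chromosome 2, had 279 counts, or 12.3 CPM, in tt5-3, 0 counts in tt5-4 and at most 7 counts in any of the 12. Neither gene passed the filter of the fit over 14 libraries.

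Also high in tt5-3 were genes of the thalianol cluster on chromosome 5, which makes a triterpene in roots. CYP705A5 stood at 303 CPM in tt5-3 and 75.7 CPM in tt5-4, with 9.70 to 123 CPM in the 12. CYP708A2 stood at 198 CPM and 77.1 CPM, with 2.07 to 90.5 CPM. The thalianol synthase gene THAS1 stood at 242 CPM and 98.6 CPM, with 25.0 to 168 CPM. The acyltransferase gene AT5G47980 in the same cluster stood at 17.6 CPM and 2.61 CPM, with 0.313 to 2.62 CPM. The list of 5 cluster genes was collected after these values were seen and has no test. Of the 5, 4 were above all 12 in tt5-3, where 5.33% of all genes were, and none in tt5-4, where 7.15% were, and AT5G47950 was within the range of the 12 in both. The remaining loci of tt5-3 were AT1G14960, BGLU47, MYB50, CYP705A12 and CHX12.

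In tt5-4 the genes that stood apart included steps of aliphatic glucosinolate synthesis, in which methionine is lengthened and turned into defence compounds. MAM1, a methylthioalkylmalate synthase gene, stood at 50.6 CPM in tt5-4 and 6.48 CPM in tt5-3, with 0 to 17.8 CPM and a median of 4.16 CPM in the 12. BCAT4, the aminotransferase gene of the first step, stood at 46.0 CPM and 6.93 CPM, with 0 to 17.9 CPM. CYP83A1 stood at 22.6 CPM and 3.57 CPM, with 0.0551 to 8.79 CPM, and MAM3 at 130 CPM and 19.9 CPM, with 0.0626 to 58.6 CPM. The highest of the 12 was ban-6 in each of these 4 genes, and tt5-3 lay within the 12. MYB28, the main activator of this branch, stood at 8.57 CPM in tt5-4 and 2.16 CPM in tt5-3, with 0 to 4.36 CPM. In a list of 17 genes of this branch, collected after these values were seen, 11 of the 14 that passed the filter were above all 12 in tt5-4, where 7.15% of all genes were, and 1 was in tt5-3, where 5.33% were.

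The widest gap of tt5-4 was at AT1G64795, an uncharacterised gene on chromosome 1, with 296 counts, or 14.3 CPM, in tt5-4, 0.706 CPM in tt5-3 and at most 0.688 CPM in the 12. It ranked second in the edgeR fit (adjusted p 0.122) with a log2 fold change of 4.55 that came from 1 library. In the fit without tt5-3 it was the 1 gene called, as CPK20 was in the fit without tt5-4, and each of those fits assumes that the lone tt5 library varies like the others. HDG2 (AT1G05230), a homeodomain factor of the epidermis, was the single locus low in tt5-4 alone, with 2 counts, or 0.0968 CPM, against 2.29 CPM in tt5-3 and 1.34 to 5.45 CPM in the 12. The other loci of tt5-4 were AT1G67105, AT3G43850, AT1G35290, DJ1F, AT2G19970 and AT1G21520.

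**Figure D5:**
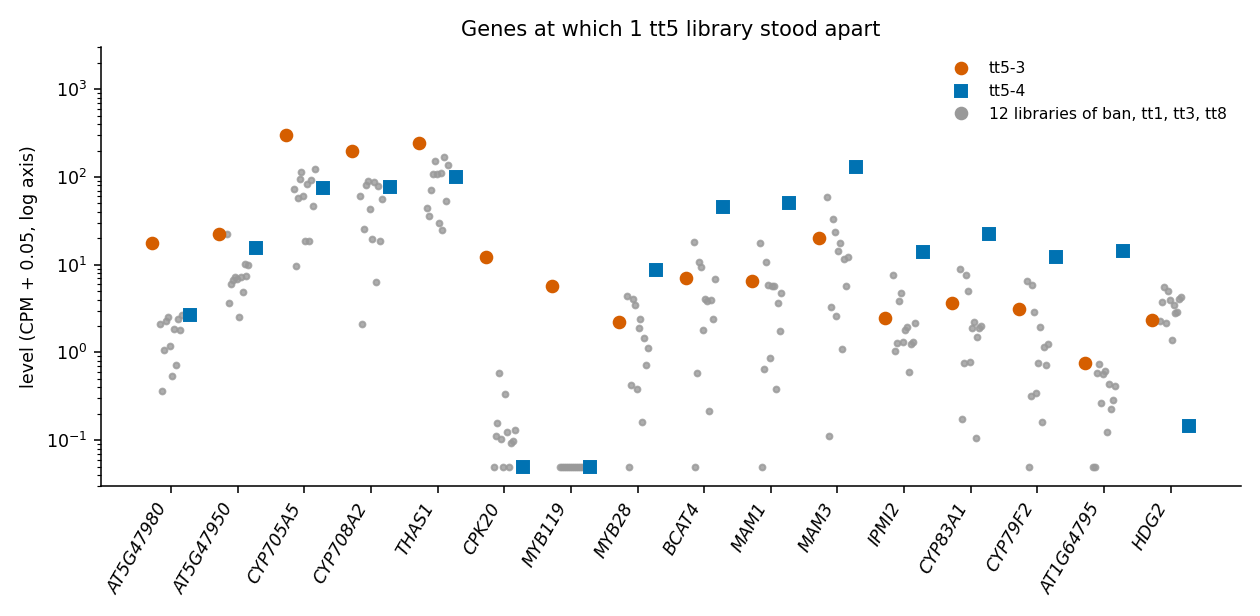
Levels in CPM with 0.05 added, on a log axis, for genes of the thalianol cluster and the aliphatic glucosinolate branch and for single loci, in tt5-3 (orange), tt5-4 (blue) and the 12 others (grey). MYB119 and CPK20 are seen in tt5-3 at 5.60 and 12.3 CPM, and AT1G64795 is high and HDG2 low in tt5-4.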

How the data were processed

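The deposited values were whole counts per gene for each library, made by the authors before deposit. Per the submitters' processing notes HISAT2 and the TAIR10 build were used; per the labels' protocols the libraries were stranded, from 1 µg of total RNA, with reads of 50 nt. How reads were assigned to genes, with which annotation and strand setting, is not given in the sources used here, so counts of overlapping genes, near-identical copies and gene families remain uncertain.

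Of the identifiers, 32547 Arabidopsis loci were kept, all of them matched to the RefSeq annotation of TAIR10.1, and 1392 small RNA features with 0.0064% to 0.0178% of the counts were left out. Levels are CPM of the kept counts. The test was that of edgeR 4.0.16 in R 4.3.3 (filterByExpr by arm, TMM factors of 0.914 to 1.072, robust quasi-likelihood F-test, 12 residual degrees of freedom, two-sided, Benjamini-Hochberg at 0.05). The SE of a log2 fold change is its size divided by the square root of F. DESeq2 1.42.0, with its default replacement of outlying counts, was an alternative, beside other scaling, filters, sample sets and terms. Gaps between libraries used log2 of CPM + 0.5. The scripts were tested on simulated data. Within each locus, no pair of libraries was a duplicate within sampling noise (chi-square divided by its degrees of freedom, 9.54 to 143).

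The libraries, lists and tests were chosen with earlier results of these data known. Named genes were TT5, all members of the 6 flavonoid lists, the 12 widest gaps on each side, called genes, list members called or beyond all 12, and neighbours of TT5 beyond all 12 or at 0. MYB119 was named too. Others were named after their values were seen, including the root hair, thalianol and glucosinolate lists.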

Additional observations from a re-analysis of the deposited data

How the results depend on the processing

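The count of called genes was 0 with DESeq2's size factors in edgeR, no filter, each locus a group, the ban, tt1 and tt3 libraries alone, the files with Unix line ends alone (without tt8-8 and tt8-11) and the insertion collection as a term. It was 1 (TT5) without robust estimation and 23 with DESeq2, and from 0 to 24 when 1 library was left out, with 24 without ban-6. The cause was not tested. No flavonoid gene other than TT5 was called under any of these settings. The count of genes beyond all 12 was 228, 230 with TMM-scaled CPM, 225 with DESeq2 size factors, 311 without a filter and 286 without tt8-8 and tt8-11. It was 678 with 6 comparison libraries in place of 12, 1 with a gap of at least 2-fold, and from 236 to 2614 when 1 library was left out; fewer libraries make the criterion easier to meet. Without ban-6 it was 759, without tt5-3 2614 and without tt5-4 2027. With 1 CPM added in place of 0.5, a choice made after seeing the data, 7 loci and not 12 set tt5-4 apart. Among 80 tested genes of the flavonoid lists and the widest gaps in 22 fits, 11 of 1756 values gained a call, and 64 values of 26 uncalled genes changed sign, all with a log2 fold change of at most 0.36 in size. The root hair genes named after their values were seen are not among the 80. No paired analysis was possible because the numbers of the alleles are names and pair no samples across loci. Depth limits statements on genes near 3 counts.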
